A study of Mus musculus with 4 samples.

Results

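Transcription factors of the trophectoderm were examined in mouse blastocysts, in the mRNA and in the ribosome-protected fragments (RPF) that Ribo-seq reads. The set was 10 regulators of this lineage, Cdx2, Gata3, Gata2, Tead4, Tfap2c, Tfap2a, Eomes, Elf5, Klf5 and Id2, taken by gene symbol, and all 10 were found among the 20714 symbols listed in both assays. Each symbol stood on a single line of each file. The samples were 2 RNA-seq libraries, made by Smart-Seq2 on polyadenylated RNA, and 2 Ribo-seq libraries. The embryos were labelled wild type and untreated, from 4-week-old superovulated C57BL/6J females mated to PWK/PhJ males in the protocol (the strain label gives C57BL/6N x PWK). They were collected at the 8-cell stage, cultured in KSOM to the blastocyst, and freed of the zona pellucida with acidic Tyrode's solution. All 4 libraries share this cross and culture, and 1 stage was analysed here, so that no comparison between stages was made. Whole blastocysts hold trophectoderm, epiblast and primitive endoderm, and in such bulk samples fewer cells of a type and less RNA per cell cannot be told apart.

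The trophectoderm is the outer epithelium of the blastocyst. It pumps fluid into the cavity, mediates implantation and gives rise to the placenta. In outer cells, weak Hippo signalling leaves YAP1 in the nucleus, where it binds TEAD4 on DNA and turns on Cdx2, and Notch signalling through RBPJ also acts on Cdx2. CDX2 and GATA3 specify the lineage, GATA2 and the AP-2 factors TFAP2A and TFAP2C act on trophoblast genes with them, EOMES and ELF5 maintain trophoblast stem cells, KLF5 acts early in the blastocyst lineages, and ID2 is a helix-loop-helix protein without a DNA-binding basic region that holds E proteins away from DNA.

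The coding starts are shown first, since Ribo-seq counts only footprints on coding sequence and the start codon sets where that sequence begins. Each line gives 10 bases before the start codon, the first codon in capitals, and 7 bases after it, as annotated in GENCODE vM1 on NCBIM37 for the transcript with the longest coding sequence.
Cdx2: cctcgccaccATGtacgtga
Tfap2a: atccatgaaaATGctttgga
Gata3: agccgaggacATGgaggtga
Gata2: gtagtggaccATGgaggtgg
Klf5: cagaccgtccATGcccacgc
Tead4: ggccggcaccATTacctcca
The first 2 lines are the genes with the highest RPF level relative to mRNA, the Gata lines those with G right after the start codon, and the last 2 the exceptions among the 10. A purine at the third base before the start codon was found in 8 of the 9 genes with an ATG start, all except Klf5, and in 86.8% of the 7673 tested genes with an ATG start and enough sequence before it. A purine there together with G after the start codon (ANNATGG or GNNATGG, read on the coding strand) was found only in Gata3 and Gata2 among the 10, and in 47.2% of the 7673 genes. Tead4 is annotated to begin at ATT, and 0.673% of 7725 tested genes with enough sequence began at a codon other than ATG. These are descriptions of the letters in this window. Genes with and without the longer motif had median RPF levels relative to mRNA of 0.02 and -0.04 on the log2 scale used below.

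The authors deposited FPKM (fragments scaled by gene length and library total), so that levels can be set side by side between genes within an assay. The 10 genes were well above the median of all symbols listed in both assays. That median was 0.300 and 0.275 FPKM in the RNA-seq replicates and 0 in both Ribo-seq replicates. Over the 8327 genes tested below, the median mRNA was 7.98 and 8.07 FPKM, and Tfap2a, at 6.58 and 6.28 FPKM, lay below it. Their lowest value was Tfap2a mRNA, which lay above 81.0% and 80.5% of symbols in the 2 replicates, and Id2 lay above 99.4% to 99.5% of symbols in both assays. The median of the 10 was 21.6 and 28.5 FPKM in the RNA-seq replicates and 140.5 and 127 FPKM in the Ribo-seq replicates.

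The RNA-seq replicates stood apart in several lineage genes, which bears on Eomes and Elf5. In replicate 2, Eomes mRNA was 2.09-fold and Elf5 mRNA 2.08-fold as high as in replicate 1, differences larger than those of at least 95% of the 8327 genes tested. Krt7 and Krt19, keratins of the trophectoderm, were also higher in replicate 2, at 5.76 and 13.1 FPKM and at 2.91 and 10.5 FPKM, but the more abundant Krt8 (1078 and 838 FPKM) and Krt18 (1757 and 1754 FPKM) were not. Over the 20 trophectoderm effector genes, 10 were higher and 10 lower in replicate 2. Of the 8 epiblast factors with a mean of at least 1 FPKM, 6 were lower in replicate 2 and 4 of them at least 2-fold lower on the log2(FPKM + 1) scale. Of the 8327 genes tested, 7.37% differed between the RNA-seq replicates by at least 0.9 log2 units either way. This limit is looser than 2-fold and covers both directions, so it is not a matched share for the 4 epiblast factors. The 10 factors were split, 5 higher and 5 lower in replicate 2. The pluripotency factors Pou5f1 (70.1 and 28.6 FPKM) and Nanog (69.8 and 28.1 FPKM) were among the 4 epiblast factors at least 2-fold lower. The summed mRNA level of the 13 epiblast factors was 356 and 245 FPKM, and that of the effector genes was 4625 and 4204 FPKM. The median log2 difference, replicate 2 minus replicate 1, was -0.80 for the epiblast mRNA and 0.01 for the effector mRNA. For the epiblast RPF it was -0.06. The filter of 1 FPKM was applied in each assay, which left 8 epiblast factors in mRNA and all 13 in RPF. These 2 epiblast medians are therefore not over the same genes. The part of the difference between RNA-seq replicates in the values of Eomes and Elf5 was not tested.

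**Figure D1:**
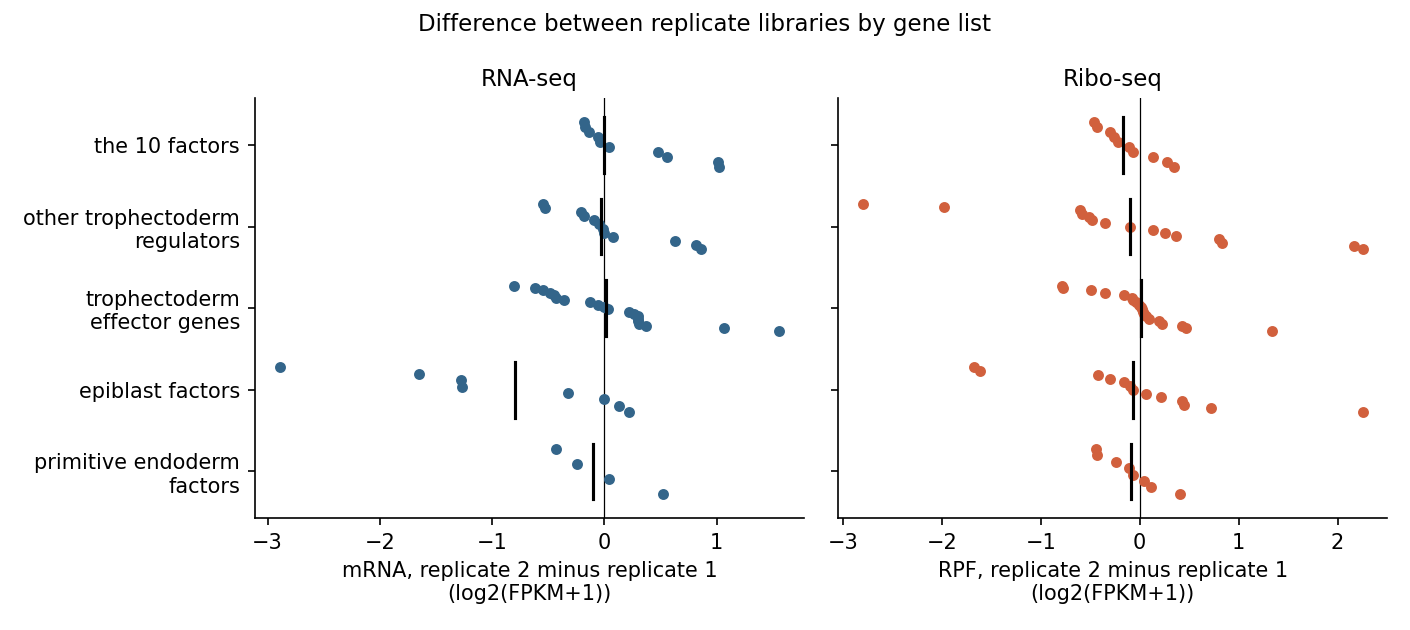
Difference between replicates (replicate 2 minus replicate 1, log2(FPKM+1)) for the 10 factors, other trophectoderm regulators, trophectoderm effectors, epiblast factors and primitive endoderm factors in RNA-seq (left) and Ribo-seq (right), with 1 point for each gene that averaged at least 1 FPKM in that assay and a bar at the median of each list. Eomes and Elf5 mRNA lay 1.02 above 0, whereas the epiblast mRNA had a median of -0.80.

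Cdx2 and its upstream factor Tead4 are described first. Cdx2, the caudal-type homeobox gene that specifies the trophectoderm (chr5:148112381-148118846, minus strand), had 21.6 and 21.0 FPKM in mRNA and 264 and 319 FPKM in RPF. The mRNA replicates were nearly equal, and both RPF values were above every other member's except those of Id2, Klf5 and Gata3. Tead4 (chr6:128174306-128250841, minus strand) had 12.4 and 17.7 FPKM in mRNA and 60.9 and 56.3 FPKM in RPF. It was low among the 10 in both assays.

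Gata3 (chr2:9778705-9811661, minus strand), which acts beside Cdx2 downstream of Tead4, had 127 and 112 FPKM in mRNA and 286 and 244 FPKM in RPF. Its mean mRNA level was 5.61-fold that of Cdx2, whereas the RPF values of Gata3 and Cdx2 overlapped. Gata2 (chr6:88143885-88157024, plus strand) had 16.4 and 24.6 FPKM in mRNA and 57.3 and 73.1 FPKM in RPF. Mean Gata3 levels were 5.84-fold those of Gata2 in mRNA and 4.07-fold in RPF.

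The AP-2 factors were apart in mRNA and overlapped in RPF. Tfap2c (chr2:172375093-172384122, plus strand) had 24.2 and 21.4 FPKM in mRNA and 117 and 84.7 FPKM in RPF. Tfap2a (chr13:40811044-40829192, minus strand) had 6.58 and 6.28 FPKM in mRNA and 109 and 121 FPKM in RPF. The mean mRNA level of Tfap2c was 3.55-fold that of Tfap2a without overlap, and their RPF values overlapped.

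Of the stem-cell factors, Eomes, a T-box gene (chr9:118387330-118395250, plus strand), had 15.5 and 32.4 FPKM in mRNA and 96.2 and 80.4 FPKM in RPF. Elf5, an ETS-domain gene (chr2:103251845-103291146, plus strand), had 21.7 and 45.1 FPKM in mRNA and 164 and 133 FPKM in RPF. In both genes the mRNA was higher and the RPF lower in replicate 2. Klf5, a zinc-finger gene (chr14:99697910-99712624, plus strand), had 94.2 and 96.7 FPKM in mRNA and 521 and 386 FPKM in RPF. Id2 (chr12:25778666-25780957, minus strand) had 763 and 695 FPKM in mRNA and 2731 and 2600.3 FPKM in RPF. Id2 alone made up 69.2% and 64.8% of the members' summed mRNA FPKM and 62.0% and 63.5% of their summed RPF FPKM. The RPF shares are from the deposited FPKM, which are raised for the short coding sequence of Id2, as described below.

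**Figure D2:**
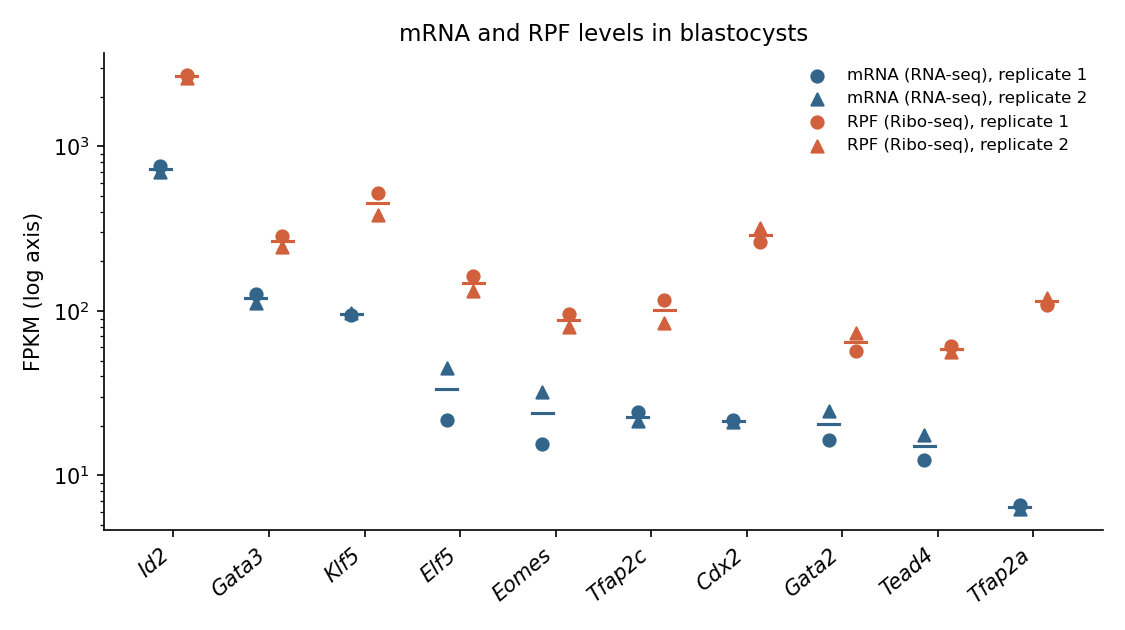
FPKM of the 10 trophectoderm factors in each library on a log axis, RNA-seq and Ribo-seq side by side, circles for replicate 1, triangles for replicate 2 and a bar at their mean. Id2 was highest in both assays, and Cdx2 and Tfap2a had the widest gaps between mRNA and RPF.

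The order of the genes was not the same in the 2 assays. By mean mRNA, Id2 was followed by Gata3 and Klf5, and these 3 were separated from each other and from the rest. Elf5, Eomes, Tfap2c, Cdx2, Gata2 and Tead4 then followed in an order in which each overlapped its neighbour, and Tfap2a was below all. By mean RPF, the order was Id2, Klf5, Cdx2, Gata3, Elf5, Tfap2a, Tfap2c, Eomes, Gata2 and Tead4, and the neighbours that overlapped were Cdx2 with Gata3, Tfap2a with Tfap2c, Tfap2c with Eomes, and Gata2 with Tead4. Cdx2 thus stood at place 7 by mRNA and at place 3 by RPF, Tfap2a at 10 and 6, and Gata3 at 2 and 4. Replicate values did not overlap in 34 of the 45 gene pairs for mRNA and in 41 of 45 for RPF. With 2 values against 2, the smallest two-sided p of an exact permutation test is 0.333, so that no pair was tested.

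The RPF level was then compared with the mRNA level of the same gene, the question being which of these genes had more RPF for their mRNA than the median of all genes tested. Genes were not matched by mRNA level. The assays differ in library preparation, and the labels do not say that they share embryos. Differences from either source cannot be told apart here from more RPF for the same mRNA. RPF FPKM ran higher than mRNA FPKM in general, by a median of 1.26 log2 units (2.40-fold) over the 8327 genes with a mean of at least 1 FPKM in both assays. All values below are relative to that median, on the log2(FPKM + 1) scale, which understates the change of low genes. All 10 factors passed the filter. limma with Benjamini-Hochberg adjustment placed 2 of the 10, Tfap2a and Cdx2, past the threshold (adjusted p under 0.05 and a difference of at least 1 log2 unit) with higher RPF. This is 20% of them, against 13.6% of all genes tested, so the count itself is near the background. The count with lower RPF was 0 by limma, at an unadjusted p under 0.05 as well, against 5.73% of all genes. Of the 10 genes 9 lay above 0, against 50% of the genes tested, and their median was 0.74.

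Tfap2a had the highest value, 2.70 (SE 0.25, adjusted p = 0.00225 by limma, n = 2 libraries per assay), which is 6.51-fold, and lay above 97.2% of the genes tested. Cdx2 followed with 2.45 (SE 0.21, adjusted p = 0.00187), or 5.45-fold, above 96.3% of the genes. Both passed the threshold in each of the alternative settings, with Cdx2 between 2.05 and 2.49 and Tfap2a between 2.43 and 2.75 in the settings that scale the assays to each other on expressed genes.

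Klf5 and Id2 had an adjusted p under 0.05 with a difference smaller than 1 log2 unit, at 0.96 (SE 0.20, adjusted p = 0.0280) and 0.61 (SE 0.11, adjusted p = 0.0183). Klf5 was at 1.02, past the threshold, without Ribo-seq replicate 2, at 0.65 without Ribo-seq replicate 1 and at 0.50 (adjusted p = 0.145) with quantile normalization. The adjusted p was 0.05 or more in 5 of 15 alternatives for Klf5 and in 6 of 15 for Id2, among them both other scalings of the assays, limma without the trend, and leaving out either RNA-seq replicate. The other 6 did not pass either limit. Elf5 was at 0.94 (SE 0.38, adjusted p = 0.143), Tfap2c at 0.82 (SE 0.26, adjusted p = 0.0830), Eomes at 0.66 (SE 0.39, adjusted p = 0.278), Tead4 at 0.65 (SE 0.28, adjusted p = 0.167) and Gata2 at 0.38 (SE 0.31, adjusted p = 0.413). Elf5 and Eomes had the largest errors, and their values depended on the RNA-seq replicate: without replicate 2 they were 1.45 and 1.16, and without replicate 1 they were 0.45 and 0.18, uncalled in each case. Gata3 was the only member below 0, at -0.12 (SE 0.18, adjusted p = 0.664). It was at -0.60 (adjusted p = 0.0671) with quantile normalization and -0.45 (adjusted p = 0.159) with rescaled FPKM, and its sign turns, to 1.14, if the assays are not centred on the median gene.

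**Figure D3:**
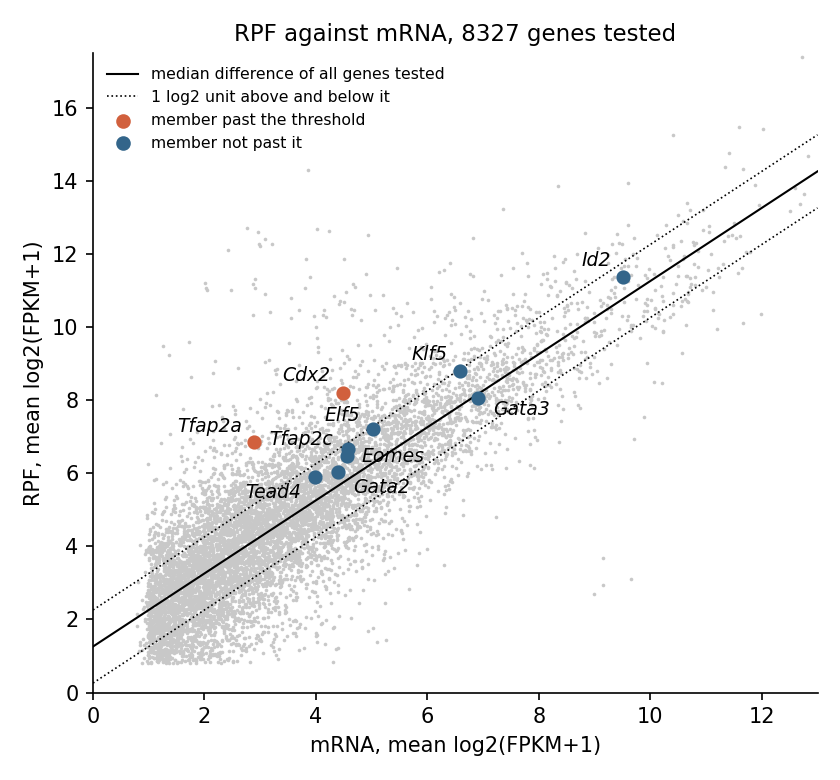
Mean log2(FPKM+1) in Ribo-seq against RNA-seq for the 8327 genes tested (grey) and the 10 factors (coloured); the solid line is the median difference of 1.26 log2 units and the dotted lines lie 1 unit above and below. Cdx2 and Tfap2a lay above the upper dotted line, and Gata3 close to the solid line.

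**Figure D4:**
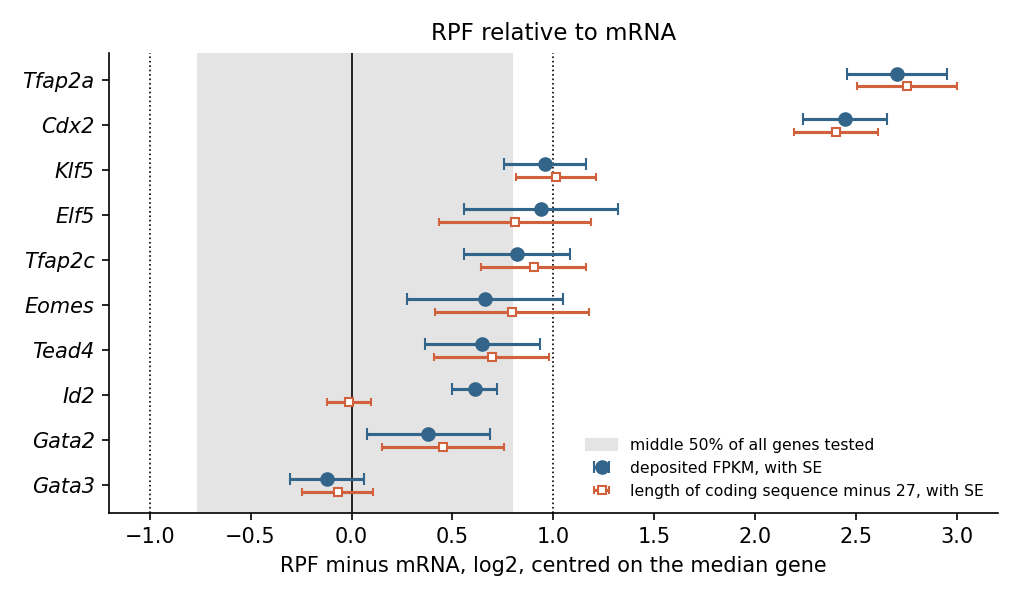
RPF minus mRNA of each factor on the log2(FPKM+1) scale relative to the median gene, with its limma standard error, from the deposited FPKM (filled circles) and with the footprint length described below (open squares); grey marks the middle 50% of genes tested, from -0.76 to 0.79, and the dotted lines 1 log2 unit either way. Values from the deposited FPKM ran from -0.12 for Gata3 to 2.70 for Tfap2a.

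The depth of Ribo-seq limits how finely these values can be read. Low FPKM values fell on steps that whole footprints would give, with 85.5% and 86.1% of 1500 low values within 0.1 of a whole number. The steps implied 533808 and 484396 footprints in all. A total fixed beforehand would give 20% by chance, but these totals were searched for a high share, so the chance level here is above 20%. For the 10 factors themselves, 10 of the 20 values were within 0.1 of a whole footprint and the others were up to 0.467 away, so the counts here are rounded and approximate. Cdx2 then rested on about 104 (95% Poisson interval 85.0 to 126) and 114 (94.0 to 137) footprints, and Tfap2a on 65 in each replicate (50.2 to 82.8). The fewest were 35 and 30 for Tead4. The most were 317 for Klf5 in replicate 1, where Id2 had 300, and 259 for Id2 in replicate 2, where Klf5 had 213. These intervals cover counting error only. A count test was not run, since these are inferred counts. For RNA-seq, the steps were weaker (50.9% and 49.3% near whole) and no counts are given.

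**Figure D5:**
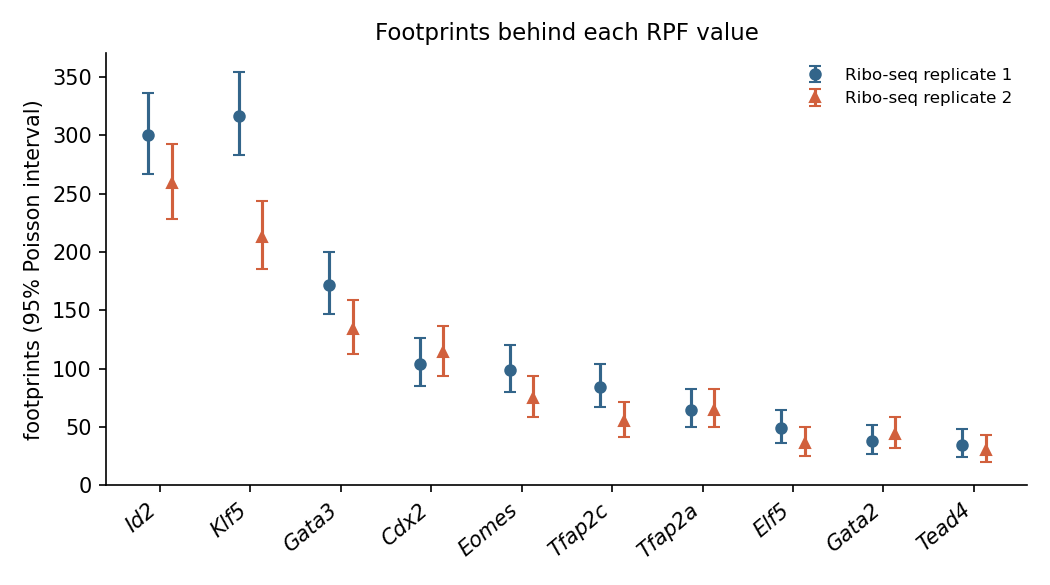
Footprints behind each factor in the 2 Ribo-seq replicates, as implied by the steps in FPKM, with 95% Poisson intervals that cover counting error only. Tead4 had the fewest, 35 and 30, and Klf5 in replicate 1 the most, 317.

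The steps held when each coding length was shortened as Cufflinks does for fragments of about 200 bases, and fell to 35.2% and 35.7% when it was shortened for 28-base footprints. The FPKM of genes with a short coding sequence are raised by this. Id2, with a coding length of 405 nucleotides, was affected most among the 10. With the footprint length its RPF level was 1487 and 1415 FPKM, 54.4% of the deposited mean, whereas the other 9 kept 76.4% to 91.7%. The RPF order of the 10 did not change. In the fit with this length, which was added after seeing the data, Id2 moved from 0.61 to -0.01 (adjusted p = 0.949) and Klf5 passed the threshold at 1.01 (adjusted p = 0.0211), while Cdx2 (2.40) and Tfap2a (2.75) stayed past it.

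Sequence shared with other genes could place reads wrongly, since reads with up to 20 places were kept. Of all 28-base windows of the coding sequences, 4 in Cdx2 and 5 in Eomes had more than 20 places, and none in the other 8. Among windows found in the genome, 86.5% were at a single place in Id2, 89.5% in Klf5, 97.4% in Tead4 and at least 98.4% in the other 7. The Id2 and Klf5 windows at more than 1 place had 2 places each, 48 and 130 windows, so their levels are less certain. Of the relatives compared, only Tead4 and Tead3 shared a run longer than a footprint, which is printed here because footprints inside it belong to either gene.
Tead4 and Tead3: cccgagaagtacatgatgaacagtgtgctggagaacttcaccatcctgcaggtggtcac
The run is 59 bases long, lies at bases 1120 to 1178 of the Tead4 coding sequence and holds 32 shared windows. Gata3 with Gata2, and Tfap2a with Tfap2c, shared at most 17 bases, which no 28-base window can lie in. In RNA-seq, Smart-Seq2 does not keep the strand, and exons of Gata3 overlapped those of Gm13256 on the opposite strand by 155 bases and those of 9230102O04Rik on the same strand by 77 bases, and exons of Tfap2a overlapped those of Gm16989 by 111 bases. Reads in those bases can come from either gene. Of these overlapping genes, 9230102O04Rik has deposited values, and Gm13256 and Gm16989 do not. How such reads were counted was not tested.

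The families of the 10 factors were compared by level. In mRNA, a single one of 30 relatives was above its family member among the 10, the ETS gene Elf3, at 185 and 186 FPKM, which is 5.55-fold the mean of Elf5. Cdx1 was at 5.16 and 5.25 FPKM, so that Cdx2 was 4.09-fold higher in mRNA, and Gata6, a primitive endoderm factor, had a mean of 9.93 FPKM in mRNA. In RPF, Gata6 had 89.4 and 82.8 FPKM, above both values of Gata2 (57.3 and 73.1 FPKM). In mRNA, Tead2 was at 5.25 and 6.14 FPKM, Klf6 at 17.3 and 13.9 FPKM, and Id3 at a mean of 15.2 FPKM. Among the relatives listed, the highest of the AP-2 factors and of Eomes, Tfap2e and Tbr1, had at most 0.341 FPKM in mRNA. For Eomes only Tbr1 and Tbx21 were listed as relatives. Tbx3, a T-box gene on other lists, had 4.40 and 4.38 FPKM in mRNA. Of the 17 relatives tested, 3 (Gata6, Klf2 and Klf9) had higher RPF past the threshold (17.6%, near the 13.6% of all genes tested), 0 lower by limma (0 also at an unadjusted p under 0.05), and the median was 0.59. The E proteins that Id2 binds were low, with Tcf3 at 2.19 and 1.49 FPKM and Tcf12 at 1.81 and 1.20 FPKM. Neither of these 2 passed the threshold by limma, also at an unadjusted p under 0.05, and Tcf4 was below the filter.

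Among 16 inputs to Tead4 and Cdx2 (the Hippo and Notch pathways and the apical polarity complex), 11 were tested, of which 4 had higher RPF (36.4%, against 13.6% of all genes) and 1 lower past the threshold (9.09%, against 5.73%), with a median of 0.74. Yap1, the coactivator of Tead4, was at 2.16 and 3.58 FPKM in mRNA and 67.6 and 44.0 FPKM in RPF, a difference of 2.61 (adjusted p = 0.00970 by limma). Rbpj, the DNA-binding partner of Notch, was at 1.21 (adjusted p = 0.0409). Of the 11, 8 lay above 0 and 3 below. Mob1a, a cofactor of the Hippo kinases, was the only input past the threshold with lower RPF. It was at 125 and 124 FPKM in mRNA and 83.6 and 55.3 FPKM in RPF, a difference of -2.12 (adjusted p = 0.00559). Amotl2 was at 0.74 (adjusted p = 0.239) and Prkci at 0.39 (adjusted p = 0.629).

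Of 19 other trophectoderm regulators, 12 were tested and 6 of them, or 50% against 13.6% of all genes, had higher RPF past the threshold (Cebpa, Cebpb, Satb1, Rbpj, Mbnl3 and Tbx3), 0 lower by limma (0 also at an unadjusted p under 0.05), with a median of 1.13. Cebpa, a leucine zipper factor, had the highest difference, 2.59 (adjusted p = 0.0115), and Mbnl3, an RNA-binding protein, the highest mRNA, at 18.5 and 16.2 FPKM. Dlx3 and Pparg were listed at 0 in all 4 libraries, and Hand1 and Gcm1 had at most 0.398 FPKM in mRNA and were at 0 in RPF. All 20 effector genes were tested and 6, or 30% against the same 13.6%, had higher RPF (Atp1b1, Aqp3, Cldn4, Gm2a, Dppa1 and Cdh1), 0 lower by limma although 2 were lower at an unadjusted p under 0.05, with a median of 0.54. Aqp3, a water channel of the trophectoderm, was at 42.7 and 29.0 FPKM in mRNA and 581 and 412 FPKM in RPF, a difference of 2.50 (adjusted p = 0.00429). The keratins Krt18 and Krt8 had the highest mRNA, 1757 and 1754 FPKM and 1078 and 838 FPKM, with differences of -0.31 (adjusted p = 0.0848) and -0.70 (adjusted p = 0.0301, under 1 log2 unit).

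Markers of the other cells were also present, as they are in a whole blastocyst. Of 13 epiblast factors 8 were tested and 3 (37.5%) had higher RPF (Pou5f1, Klf2 and Tbx3), with a median of 1.24, and of 12 primitive endoderm factors 4 were tested and 2 (50%) had higher RPF (Gata6 and Sparc), with a median of 1.60. All genes tested had 13.6% with higher RPF. Pou5f1 was at 2.15 (adjusted p = 0.0232) and Sparc, a secreted matrix protein, at 2.86 (adjusted p = 0.00123). Klf2 was at 2.45 (SE 0.63, adjusted p = 0.0473). The RNA-seq replicates were apart for Klf2 (3.27 and 0.357 FPKM) and Pou5f1 (70.1 and 28.6 FPKM), but not for Tbx3 (4.40 and 4.38 FPKM). The first 2 of these calls are therefore less firm. The epiblast factors with the highest mRNA, Tfcp2l1 and Zfp42, were uncalled by limma at 0.53 (adjusted p = 0.133) and -0.17 (adjusted p = 0.638). Among the 8 tested, Tdgf1 was highest at 3.45 (adjusted p = 0.0530) and Sall4 lowest at -0.17 (adjusted p = 0.612), with 6 above 0 and 2 below. Tdgf1 mRNA was at 22.2 and 2.12 FPKM in the replicates. Sox2, at 0.889 and 0.682 FPKM in mRNA and 37.1 and 35.4 FPKM in RPF, was below the filter and is not in this ranking. Dab2 had the lowest value of the 4 primitive endoderm factors tested, 0.60 (adjusted p = 0.0901), and all 4 lay above 0. Sox17 (0.204 and 0 FPKM in mRNA, 32.7 and 27.6 FPKM in RPF) was below the filter. So was Gata4 (0.0574 and 0 FPKM in mRNA, 15.0 and 20.2 FPKM in RPF). Some genes stand on more than 1 list, such as Tbx3 and Rbpj. Later trophoblast genes were low: 1 of 10, Syna, was tested, at -1.67 (adjusted p = 0.134), and 4 were at 0 in all libraries. Of 12 oocyte and cumulus cell markers 0 passed the filter and 9 were at 0 in all 4 libraries, with a sum of at most 3.01 FPKM in any library.

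Among the genes whose levels were most like those of Cdx2, by Euclidean distance of log2(FPKM + 1) over the 4 libraries and out of 20713 candidates, were Elavl1 (0.25) and Pcnp (0.37). Elavl1 had 21.8 and 22.6 FPKM in mRNA and 279 and 275 FPKM in RPF. None of the other 9 factors was among the 3 nearest genes.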

How the data were processed

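RNA-seq and Ribo-seq libraries of mouse blastocysts, 2 per assay, were grouped by the sample labels. The authors deposited FPKM for each gene and library: reads were trimmed (Trim Galore 0.4.2, cutadapt 1.14), rRNA reads removed from Ribo-seq (Bowtie2 2.2.2), the rest mapped to mm9 with STAR 2.5.3a (up to 20 places a read; at most 2 mismatches in Ribo-seq) and quantified with Cufflinks 2.2.1, on transcripts for RNA-seq and coding sequences for Ribo-seq. Such values are not counts.

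The highest FPKM was used where a symbol repeats. RPF was compared with mRNA by limma 3.58.1 (R 4.3.3, with a trend) on log2(FPKM + 1), centred on the median of the genes that averaged 1 FPKM or more in each assay, with Benjamini-Hochberg adjustment over all genes tested. The labels do not say that replicates came from separate cultures, so p-values measure the spread between libraries, which may be technical. On simulated data for this comparison (8327 genes, 200 changed, 10 runs) the fit recovered 54.3% of genes changed by 2 log2 units and 74.8% of those changed by 3, and 6.04% of its calls fell on unchanged genes.

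Sequences and coordinates came from GENCODE vM1 on NCBIM37, the assembly of mm9, where Tfap2a and Tfap2c are Tcfap2a and Tcfap2c. Footprint numbers were inferred from FPKM steps and coding lengths, which 95.4% of symbols had. The members and the gene lists were chosen with earlier results of these data known. Named besides the members were, per list, the 3 genes with the highest mean mRNA and those with the highest and the lowest difference, the relative with the highest mRNA per family, and the 3 genes nearest to Cdx2, of which 1 is not reported here. Genes past the threshold in a list, the genes that differed between replicates and the regulators at or near 0 were named after their values were seen.

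Alternatives were another pseudocount, filter, scaling, handling of repeated symbols, limma without the trend, a replicate block, each library left out and, added after seeing the data, the footprint length.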

Additional observations from a re-analysis of the deposited data

How the results depend on the processing

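Cdx2 and Tfap2a passed the threshold, with higher RPF, in every alternative run. The number of genes past it was 1611 (1134 higher and 477 lower RPF, 70.4% higher) and moved with the setting. It was 2480 without a filter on low values (2365 and 115, 95.4% higher), where no median shift is removed, and 4210 without centring (4144 and 66, 98.4% higher). With these 2 settings 7 and 10 of the 10 factors passed, and Gata3 turned from -0.12 to 1.14 in both. It was 1030 by limma without the trend. Quantile normalization (928 and 868, 51.7% higher) and rescaling FPKM to equal sums (941 and 743, 55.9% higher) moved the split. Leaving out each library in turn gave 601 to 2724 genes, with the low values, 623 and 601, without RNA-seq replicates 1 and 2 and the high ones, 2724 and 2674, without Ribo-seq replicates 1 and 2. In each the library left alone is assumed to vary like the other group. Klf5 was the only further factor past the threshold when a library was left out. With the footprint length, Id2 turned from 0.61 to -0.0111.

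The median mRNA level of the 10 factors was 23.4 FPKM, 21.6 to 28.5 FPKM with an RNA-seq replicate left out, and 45.8 after rescaling. The median RPF level was 132 FPKM, 127 to 140.5 FPKM with a Ribo-seq replicate left out, 68.2 after rescaling and 106 with the footprint length.

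With the replicate number as a block, 1699 genes passed and the same 2 factors. Deviations of same-numbered libraries had a correlation of 0.0099 over 8327 genes, and the labels do not say that a number marks shared embryos, so the pairing is a shared number only. Over the single factors and all alternatives, 134 differences kept their direction and side of the threshold, 13 passed it in addition and 3 turned.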
